A study of Homo sapiens with 2 samples.

Results

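The genes described here are the cyclins and kinases that move a cell through the G1 phase of its cycle, the inhibitors that hold these kinases back, and their substrate RB1. The 10 genes were taken by name (CDK4, CDK6, CCND1, CCND2, CCND3, CCNE1, CDKN1B, CDKN2A, CDKN2B and RB1), out of 41582 genes with a symbol in the table, by a rule that uses no measured value, though with earlier results of these data known. U87, a long-established glioblastoma cell line of human origin that is labelled as wild type, gave the RNA after 72 h with DMSO, the vehicle, or with CCA-1.1, a curcumin analog. The dose given to the sequenced cells is not given in the sources used here. There was 1 library per condition. No difference below therefore has a replicate check, no p-value was calculated, and an effect of CCA-1.1 cannot be told apart from any other difference between the 2 cultures.

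The values are in TPM, a unit scaled for transcript length and for the size of the library, so levels of different genes can be set side by side. The read depth behind them is unknown, and no interval for counting error can be given. TPM was summed over all transcripts of a gene. A difference is log2((CCA-1.1 TPM + 1) / (DMSO TPM + 1)), which is 0 for equal values and understates the change of low genes, and a gene was counted as past 2-fold when it was above 1 or below -1. In bulk RNA, fewer cells that express a gene and less RNA per cell cannot be told apart.

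D-type cyclins bind CDK4 and CDK6, and the resulting kinases phosphorylate RB1, which otherwise holds E2F transcription factors and keeps the genes of DNA replication off. Cyclin E with CDK2 completes this phosphorylation. Inhibitors of the INK4 family, among them the products of CDKN2A and CDKN2B, bind CDK4 and CDK6 directly, and those of the CIP/KIP family, among them p27 from CDKN1B, act on cyclin-CDK complexes. Loss of the CDKN2A locus is among the most common lesions of glioblastoma, and U87 cells are known to lack this locus. DNA copy number was not measured in these samples.

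In both libraries the G1 genes formed the same pattern, with high CDK4, CCND1 and CCND3, lower CDKN1B, RB1, CDK6 and CCNE1, and 3 genes listed at 0 (CCND2, CDKN2A and CDKN2B). None of the 10 passed 2-fold between the libraries, where 1.53% of all genes with a symbol did. The 3 genes listed at 0 in both libraries could not pass it. The share was 0.341% of protein-coding genes averaging 1 TPM or more, so a count of 0 among the 7 members at that mean is near the background. CCNE1 had the largest difference, with -0.38, followed by CDKN1B with 0.26 and CCND1 with -0.19.

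**Figure D1:**
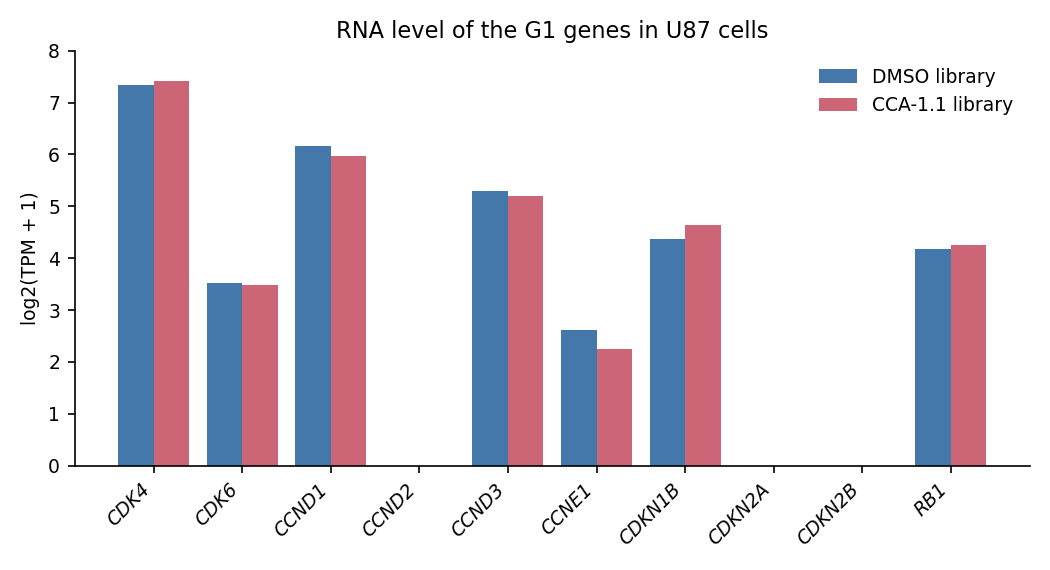
RNA level of the 10 G1 genes, with the gene on the x axis and log2(TPM + 1) on the y axis; each bar is 1 library, DMSO in blue and CCA-1.1 in red, so there are no error bars. CDK4 is the tallest pair (161.6 TPM with DMSO, 169.6 TPM with CCA-1.1), and CCND2, CDKN2A and CDKN2B have no bars because they were listed at 0 in both libraries.

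The sequences upstream of 4 members are shown because these genes stand at the ends of that pattern. CDK4 had the highest level, CCNE1 the largest difference, and CDKN2A and CDKN2B no signal. Each is the 250 bases before a RefSeq start site on GRCh38.p14, 5′ to 3′ on the strand of the gene. For CDK4 (chr12:57752311-57752560, minus strand), capitals mark CACGTG, the E-box bound by MYC and related factors. For CCNE1 (chr19:29811741-29811990, plus strand), CDKN2A and CDKN2B, capitals mark the GC box, GGGCGG or its reverse complement CCGCCC, to which SP1 binds. CDKN2A has a window upstream of its outer first exon (chr9:21995325-21995574, minus strand), used by the ARF transcript, and one upstream of its inner first exon (chr9:21974858-21975107, minus strand), used by the p16 transcript. The CDKN2B window is chr9:22009306-22009555 on the minus strand.
CDK4: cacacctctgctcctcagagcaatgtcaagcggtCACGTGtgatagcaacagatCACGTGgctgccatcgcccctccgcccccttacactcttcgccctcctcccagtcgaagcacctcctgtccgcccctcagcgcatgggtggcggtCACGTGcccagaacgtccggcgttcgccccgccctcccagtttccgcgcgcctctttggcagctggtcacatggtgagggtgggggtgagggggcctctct
CCNE1: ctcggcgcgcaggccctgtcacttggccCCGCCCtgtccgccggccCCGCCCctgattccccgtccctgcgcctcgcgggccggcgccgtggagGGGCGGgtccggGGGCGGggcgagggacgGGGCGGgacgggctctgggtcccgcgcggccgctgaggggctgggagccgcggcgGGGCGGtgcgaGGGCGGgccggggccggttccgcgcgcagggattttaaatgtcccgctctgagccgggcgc
CDKN2A, outer start: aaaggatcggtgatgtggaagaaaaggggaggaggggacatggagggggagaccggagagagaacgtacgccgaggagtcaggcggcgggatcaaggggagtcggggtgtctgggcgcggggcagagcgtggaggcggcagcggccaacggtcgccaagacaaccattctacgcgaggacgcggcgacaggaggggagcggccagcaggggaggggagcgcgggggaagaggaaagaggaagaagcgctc
CDKN2A, inner start: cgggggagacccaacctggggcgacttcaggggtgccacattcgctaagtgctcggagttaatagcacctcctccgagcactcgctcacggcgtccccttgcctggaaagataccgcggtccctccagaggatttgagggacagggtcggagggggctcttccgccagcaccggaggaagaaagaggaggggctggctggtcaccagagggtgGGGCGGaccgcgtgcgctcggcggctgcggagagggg
CDKN2B: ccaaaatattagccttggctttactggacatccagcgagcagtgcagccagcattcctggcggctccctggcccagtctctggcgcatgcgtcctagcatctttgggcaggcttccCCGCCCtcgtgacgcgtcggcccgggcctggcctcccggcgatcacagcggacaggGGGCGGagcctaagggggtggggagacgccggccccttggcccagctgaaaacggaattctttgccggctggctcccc

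The CDK4 window held 3 E-boxes, a sequence that is its own reverse complement. Of 35116 such windows over all genes, 6.34% held at least 1 and 0.0797% held 3 or more. CDK4 was the only member among the 8 with a window that held one. CCNE1 held 7 GC boxes on both strands together, against 1 at the inner start of CDKN2A, 2 in CDKN2B and 0 at the outer start of CDKN2A. CDK4 held 3, CDKN1B 1, the windows of CDK6 3 and 0, and the windows of CCND3 5, 2 and 0. At least 1 GC box was present in 42.6% of all windows and at least 3 in 13.9%. CpG dinucleotides numbered 39 in the CCNE1 window, 24 and 20 in those of CDKN2A and 18 in that of CDKN2B, against 19 in that of CDK4, with a median of 11 over all windows. Those of CDK6 held 30 and 23, that of CDKN1B 27, and those of CCND3 26, 26 and 3. A count above that median was thus not particular to the genes shown. DNA methylation was not measured. The E2F motif in the forms TTTCCCGC, TTTGGCGC, TTTCGCGC and TTTGCCGC, searched on both strands, was in 0 of the 12 windows of members. It was in 2.79% of all windows, so a count of 0 among 12 is near that share. Of the 10 E2F target genes below with a window, 5 held it in at least 1 of their windows. That count is per gene, and those genes were listed as E2F targets. CCND1 and CCND2 have no window, and that of RB1 lies inside the gene (chr13:48476200-48476449) and not at its start, so the search did not cover these promoters. These are matches of letters and no evidence of binding.

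CDK4 and CDK6 encode the kinases that D-type cyclins activate. CDK4 (Entrez 1019, chromosome 12, 57747727 to 57752310 of GRCh38.p14) was at 161.6 TPM with DMSO and 169.6 TPM with CCA-1.1, a difference of 0.07. This level was at or above that of 97.7% of all genes in the DMSO library. CDK6 (Entrez 1021, chromosome 7, 92604921 to 92836573) was at 10.5 TPM and 10.2 TPM, a difference of -0.036. CDK4 RNA thus outweighed CDK6 RNA 15.4-fold in DMSO and 16.7-fold in CCA-1.1, and it made up 93.9% and 94.3% of the sum of both. The sum was 172.0 TPM with DMSO and 179.8 TPM with CCA-1.1.

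Of the D-type cyclins, which link growth factor signals to the cycle, CCND1 was the most abundant. CCND1 (Entrez 595, chromosome 11, 69641156 to 69654474) was at 70.7 TPM with DMSO and 61.9 TPM with CCA-1.1, a difference of -0.19. CCND3 (Entrez 896, chromosome 6, 41934933 to 42050035) was at 38.1 TPM and 35.9 TPM, a difference of -0.08. CCND2 (Entrez 894, chromosome 12, 4273762 to 4305353), whose only transcript in the table is NM_001759.4, was listed at 0 in both. The RNA of D-type cyclins was therefore that of CCND1 and CCND3 in both libraries, with CCND1 at 65.0% of their sum in DMSO and 63.3% in CCA-1.1. The sum was 108.8 TPM with DMSO and 97.8 TPM with CCA-1.1.

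CCNE1 encodes cyclin E1, the partner of CDK2 late in G1 and itself an E2F target. CCNE1 (Entrez 898, chromosome 19, 29811991 to 29824312) was at 5.16 TPM with DMSO and 3.75 TPM with CCA-1.1. Its difference of -0.38 lay at the lower edge of the span from the 5th percentile to the 95th of 4135 protein-coding genes averaging 1 to 10 TPM, which ran from -0.37 to 0.44. Rounding of the table allows -0.39 to -0.36 for CCNE1, so on which side of the edge it lies is not settled. For the 7906 protein-coding genes averaging 10 TPM or more this span was -0.29 to 0.31, and the other 6 members above 0 lay inside it. CCND1 exceeded CCNE1 13.7-fold in DMSO and 16.5-fold in CCA-1.1.

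CDKN1B was the only inhibitor among the members with RNA in the table. CDKN1B (Entrez 1027, chromosome 12, 12717368 to 12722369) was at 19.8 TPM with DMSO and 24.0 TPM with CCA-1.1, a difference of 0.26. With CDKN2A and CDKN2B at 0, it alone made up the inhibitor sum of the members. This sum was 0.182 of the sum of D-type cyclins in DMSO and 0.245 in CCA-1.1. Both terms of this ratio differed between the libraries, the inhibitor being higher and the cyclins lower in CCA-1.1. Differences of this size were also seen among 11 genes that every cell uses, which ran from -0.32 (POLR2A) to 0.31 (RPLP0). The ratio leaves out the inhibitors that are not members, among them CDKN1A (830.0 TPM, 1009 TPM) and CDKN2D (48.8 TPM, 39.6 TPM). CDKN1A RNA alone exceeded the sum of D-type cyclins in both libraries. RB1 (Entrez 5925, chromosome 13, 48303751 to 48481890), the pocket protein that these kinases inactivate, was at 17.2 TPM and 18.0 TPM, a difference of 0.07. RB1 RNA was thus present at similar levels in both libraries, and phosphorylation of its protein was not measured.

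CDKN2A (Entrez 1029, chromosome 9, 21967752 to 21995324) was listed at 0 in both libraries for each of its 10 transcripts. These include NM_000077.5, which encodes p16, and NM_058195.4, which encodes ARF, an activator of p53 through its hold on MDM2. CDKN2B (Entrez 1030, chromosome 9, 22002903 to 22009313), which encodes p15, was listed at 0 for both of its transcripts. Of all 19938 protein-coding genes, 12.4% were listed at 0 in both libraries. None of the 11 genes that every cell uses and that were checked, such as ACTB and TBP, was at 0, and the lowest value among them was 23.8 TPM. The table holds 2 decimals, so a transcript listed at 0 had less than its smallest step of 0.01 TPM.

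The genes around these loci give the 3 members at 0 a context. In order along chromosome 9, the nearest protein-coding genes with at least 1 TPM in both libraries were SLC24A2 on one side, at 1.65 TPM with DMSO and 1.36 TPM with CCA-1.1, and TUSC1 on the other, at 16.9 TPM and 14.1 TPM. They are 5.37 Mb apart and have 26 protein-coding genes between them, CDKN2A and CDKN2B included, of which 18 were listed at 0 in both libraries. Many of the 26 are interferon genes, which most cells keep silent without an antiviral stimulus. The highest value in this stretch was 0.99 TPM, that of ELAVL2 in DMSO.

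Genes of the stretch with wide expression in human tissues were low as well. MTAP, next to CDKN2A and encoding an enzyme that salvages methionine and adenine, was at 0.22 TPM with DMSO and 0.31 TPM with CCA-1.1. FOCAD was at 0.27 TPM and 0.30 TPM, and KLHL9, an adaptor of a ubiquitin ligase, at 0.03 TPM and 0.05 TPM. Neighbours of CDKN2A thus had little signal in both libraries. Why genes were low was not tested, here or at the loci below. CDKN2B-AS1, a long noncoding RNA that runs across CDKN2B, was at 0.26 TPM and 0.37 TPM, and CDKN2A-AS1 was listed at 0 in both. The use of strand in the quantification is not stated, and without it reads from overlapping antisense genes cannot be told apart.

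CCND2 differed in its setting. Its nearest protein-coding neighbours on chromosome 12, PARP11 and TIGAR, were both above 1 TPM. PARP11 was at 3.71 TPM with DMSO and 4.18 TPM with CCA-1.1, and TIGAR at 5.38 TPM and 5.42 TPM. CCND2 was the only protein-coding gene between them, over 0.448 Mb. The antisense RNA CCND2-AS1 was also listed at 0 in both libraries.

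CDKN2C, which encodes the INK4 inhibitor p18 and was looked at around its locus after its value had been seen, also lay among low genes. It was listed at 0 in both libraries, within a stretch on chromosome 1 between SPATA6 and RNF11. SPATA6 was at 16.2 TPM with DMSO and 13.5 TPM with CCA-1.1, and RNF11 at 110.0 TPM and 111.6 TPM. The stretch of 2.76 Mb holds 7 protein-coding genes, of which 4 were at 0 in both, and none exceeded 0.30 TPM. FAF1, the gene next to CDKN2C and one with wide expression, was at 0.08 TPM and 0.05 TPM. The usual expression of the other genes of the stretch was not examined. RNF11 starts only 0.28 Mb from the start of CDKN2C, so most of the stretch lies on the other side.

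**Figure D2:**
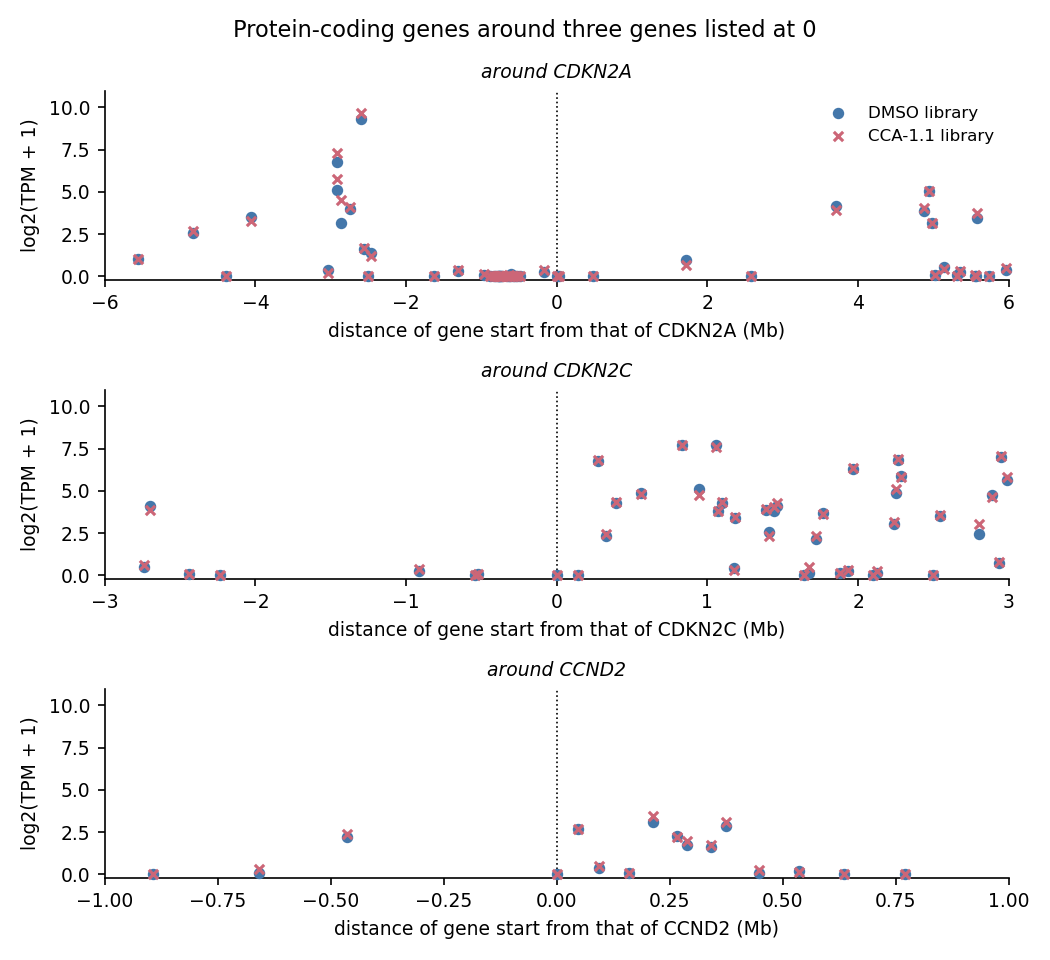
Protein-coding genes around CDKN2A, CDKN2C and CCND2, with the distance of each gene's start from that of the named gene in Mb on the x axis and log2(TPM + 1) on the y axis; circles are the DMSO library and crosses the CCA-1.1 library. Genes between SLC24A2 and TUSC1 around CDKN2A, and between SPATA6 and RNF11 around CDKN2C, lie below 1 TPM in both libraries. Genes farther out do not all do so, such as RPS6 near CDKN2A (630.0 TPM with DMSO, 811.9 TPM with CCA-1.1). Both neighbours of CCND2 lie above 1 TPM.

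Of the members above 0, CDK4, CCND1, CDKN1B and RB1 have a single transcript in the table, so their values do not depend on how reads were divided among isoforms. CCND3, CDK6 and CCNE1 have several. Their transcript values are estimates, since the authors' pseudo-alignment divides reads that match several transcripts among them. Of the 32 transcripts of members, 18 were above 0 in at least 1 library and 3 passed 2-fold, all of them in CCND3. Of all transcripts listed, 2.23% passed it, and among those averaging 1 TPM or more 7.04% did, with 1 transcript of a member, XM_011514971.3, among them.

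In CCND3, NM_001760.5 led with 30.8 TPM with DMSO and 26.0 TPM with CCA-1.1, which were 81.0% and 72.3% of the gene. The transcript XM_011514971.3 rose from 0.73 TPM to 4.65 TPM, a difference of 1.71. NM_001136017.3 fell from 1.39 TPM and XM_047419491.1 fell from 1.35 TPM, and both were listed at 0 in CCA-1.1. NM_001136126.3 was at 2.72 TPM and 4.52 TPM, or 7.15% and 12.6% of the gene. Against these shifts within the gene, the CCND3 total differed by -0.08, and whether the shifts are changes of isoform or of the estimates was not tested.

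In CCNE1, NM_001238.4 was at 4.62 TPM with DMSO and 2.21 TPM with CCA-1.1, a difference of -0.81, and its share of the gene was 89.5% and 58.9%. NM_001322262.2 was at 0.54 TPM and 1.29 TPM, with shares of 10.5% and 34.4%. NM_001322259.2, at 0 in the DMSO library, reached 0.25 TPM with CCA-1.1. In CCA-1.1 the leading transcript was thus lower and the minor ones higher. In CDK6, NM_001145306.2 was at 4.56 TPM and 5.95 TPM, NM_001259.8 at 2.25 TPM and 1.48 TPM, and the predicted XM_047419716.1 at 3.65 TPM and 2.75 TPM. With curated transcripts only, the difference of CDK6 was 0.11 in place of -0.036, so its direction depends on that predicted transcript.

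**Figure D3:**
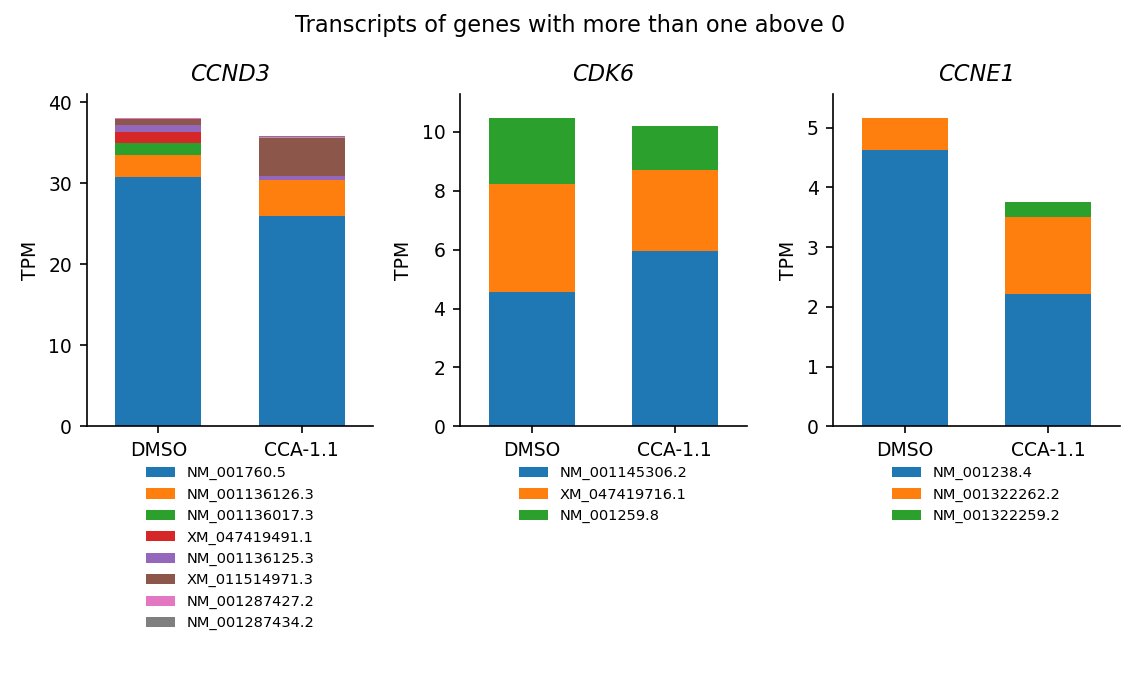
TPM of each transcript of CCND3, CDK6 and CCNE1, stacked within a bar for the DMSO library and one for the CCA-1.1 library, with 1 library each. The leading CCNE1 transcript is 4.62 TPM with DMSO and 2.21 TPM with CCA-1.1, and in CCND3 XM_011514971.3 is 0.73 TPM and 4.65 TPM while the gene totals are 38.1 TPM and 35.9 TPM.

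The remaining genes of the pathway were taken from lists by role. Among the partners of these cyclins and kinases, 0 of 6 passed 2-fold, and their median difference was -0.03 against 0 for all genes. Over the 5 averaging 1 TPM or more it was -0.12, against 0.029 for all genes above that mean. CDK2, the kinase of cyclin E, was at 54.8 TPM with DMSO and 47.9 TPM with CCA-1.1, a difference of -0.19, and exceeded CCNE1 10.6-fold and 12.8-fold. MNAT1, a subunit of the kinase that activates CDKs, had the largest positive difference, 0.38, with 18.5 TPM and 24.4 TPM. CDK2 RNA was thus far more abundant than that of CCNE1 in both libraries. The other E-type cyclin gene, CCNE2, was at 1.82 TPM with DMSO and 1.59 TPM with CCA-1.1 and is not in these ratios.

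Among the other CDK inhibitors, 0 of 5 passed 2-fold, with a median of -0.07. Over the 3 averaging 1 TPM or more the median was -0.16, against 0.029 for all genes above that mean. CDKN1A, which encodes p21 and is a target of p53, was at 830.0 TPM with DMSO and 1009 TPM with CCA-1.1, a difference of 0.28. It exceeded CDKN1B 41.9-fold in DMSO and 42.1-fold in CCA-1.1, and so was by far the most abundant inhibitor RNA of the CIP/KIP family in these cells. CDKN2D, which encodes p19, was at 48.8 TPM and 39.6 TPM, a difference of -0.29. With CDKN2A, CDKN2B and CDKN2C at 0, CDKN2D held all of the INK4 RNA in the table. CDKN1C, the gene of p57, was at 0.05 TPM with DMSO and listed at 0 in CCA-1.1.

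Of the 12 genes for RB relatives and E2F factors, 0 passed 2-fold. Their median was -0.05, and 0.05 over the 10 averaging 1 TPM or more, so its sign depends on the low genes. E2F1, an activator that RB1 binds, came closest. It was at 11.5 TPM with DMSO and 5.72 TPM with CCA-1.1, a difference of -0.89, and with no pseudocount, tried after its value had been seen, it was -1.003 and past the threshold. Both of its transcripts above 0 were lower in CCA-1.1, NM_005225.3 with 10.5 TPM and 5.58 TPM and XM_047439961.1 with 0.99 TPM and 0.14 TPM. E2F5, a factor that acts with the RB relatives, was at 4.59 TPM and 8.13 TPM, a difference of 0.71. Both E2F1 and E2F5 lay outside the percentile span of genes at 1 to 10 TPM given above, in opposite directions. They were not the only genes of the pathway lists outside the span of their level. MNAT1 lay above it, and CDKN2D, RRM2, MYBL2, TYMS and MCM4 lay below it.

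Of the 12 E2F target genes, most of which serve DNA replication and its start, 1 passed 2-fold, lower in CCA-1.1, where 0.714% of all genes did. RRM2, a subunit of the reductase that makes deoxynucleotides, fell from 5.50 TPM to 2.06 TPM, a difference of -1.09. The median of the list was -0.18 against 0 for all genes. Over the 11 averaging 1 TPM or more it was -0.19, against 0.029 for the 15485 genes above that mean, and 8 of the 11 were below 0 and 3 above. Of the 15485 genes, 6774 were below 0 and 8680 above. MYBL2 (1.35 TPM, 0.68 TPM), TYMS (25.6 TPM, 19.9 TPM) and MCM4 (15.4 TPM, 12.2 TPM), named after their values had been seen, were lower in CCA-1.1 with differences of -0.48, -0.34 and -0.31. MCM6, a helicase subunit, had the largest positive difference of the list at that mean, 0.08, with 9.75 TPM and 10.4 TPM, and MCM2 was at 26.5 TPM and 26.7 TPM. MCM7 was at 35.1 TPM in both. CCNA2, below that mean and also counted among the partners above, was at 0.57 TPM and 0.91 TPM. The lower values thus did not extend to the whole list.

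Of the 7 genes that set the turnover of G1 regulators, 0 passed 2-fold and the median was 0.0055. SKP2, which marks p27 for degradation, was at 3.08 TPM with DMSO and 4.52 TPM with CCA-1.1, a difference of 0.44. CKS1B, its cofactor, was at 127.5 TPM and 109.3 TPM, a difference of -0.22. Proteins were not measured.

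**Figure D4:**
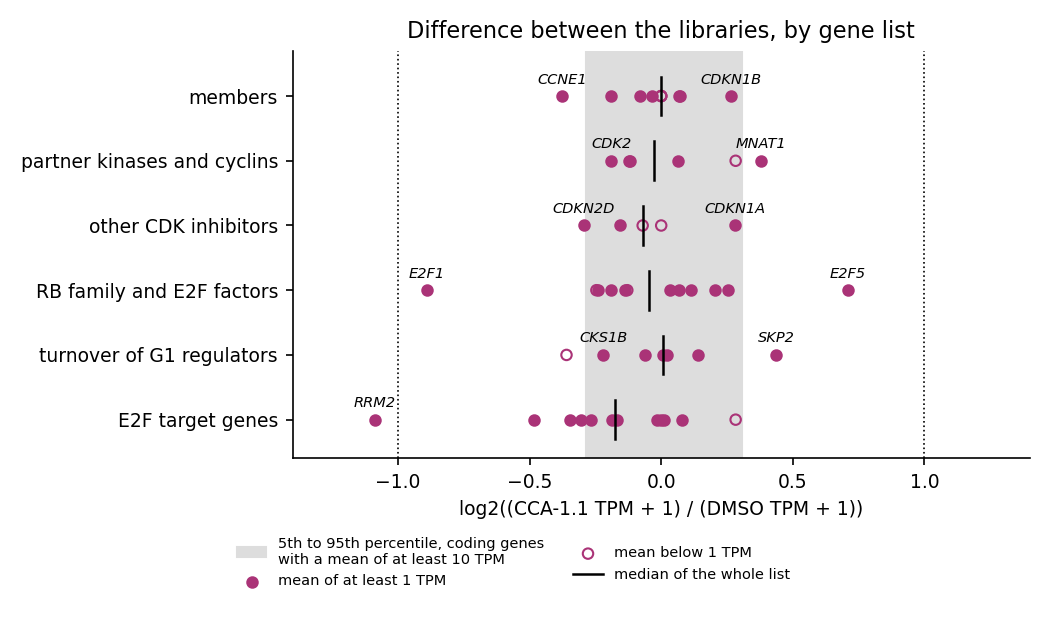
Difference between the libraries, log2((CCA-1.1 TPM + 1) / (DMSO TPM + 1)), on the x axis for each gene of the members and of 5 pathway lists on the y axis; each point is 1 gene, open below a mean of 1 TPM, the black bar is the median of the list, the dotted lines mark 2-fold and the grey band runs from -0.29 to 0.31. Only RRM2, at -1.09, lies past a dotted line, and E2F1, at -0.89, comes next.

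The label of the cells was compared with marker genes. VIM (3217 TPM with DMSO, 3106 TPM with CCA-1.1) and CD44 (607.4 TPM, 472.6 TPM), both high in mesenchymal glioblastoma cells, led the 8 glial and glioblastoma markers. OLIG2 (5.64 TPM, 7.03 TPM), NES (7.53 TPM, 7.62 TPM) and SOX2 (1.87 TPM, 1.45 TPM), genes of glial and neural progenitors, were lower but above 1 TPM in both libraries. The astrocyte genes GFAP, S100B and AQP4 were nearly absent, with GFAP at 0.41 TPM and 0.57 TPM, S100B listed at 0 and AQP4 at 0 and 0.02 TPM. Among the 10 markers of other cell types, 1, CD3E, was listed at 0 in both libraries, and 5 averaged 1 TPM or more. The highest were the neuronal genes SNAP25 (22.0 TPM, 16.8 TPM) and SYT1 (11.4 TPM, 11.5 TPM), above OLIG2, NES and SOX2 in both libraries. PECAM1 (3.41 TPM, 2.71 TPM), RBFOX3 (1.83 TPM, 2.45 TPM) and CD14 (1.82 TPM, 1.54 TPM) followed. The 10 summed to 41.3 TPM with DMSO and 35.7 TPM with CCA-1.1, and none passed 2-fold. Their part in the values above was not tested.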

How the data were processed

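RNA of U87 cells was sequenced after 72 h with DMSO or CCA-1.1, 1 library each. Per the labels and the methods, the authors used FastQC 0.11.9 and MultiQC 1.1 on the reads and Kallisto, with GRCh38.p14 as reference, on the transcripts. The deposited values are TPM with 2 decimals; the unit was inferred from column sums of 999999 and 1000000. TPM keeps no read depth, so count tests, p-values and intervals are left out.

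Of 177816 transcripts, 169966 matched 1 of 41582 RefSeq symbols of GRCh38.p14 with versions ignored (169411 with them). TPM was summed per gene, and differences of log2(TPM + 1) past 1 or -1 were counted. The members and lists were chosen with earlier results of these data known. Named were all 10 members, their leading transcripts, those past 2-fold or with a mean of at least 10% of the gene, and from each pathway list the genes past 2-fold and the largest difference in each direction at a mean of at least 1 TPM. Other names were chosen after their values were seen. Alternatives were pseudocounts of 0.1 and 0.01 TPM, a minimum mean of 1 TPM, median-ratio scaling, curated transcripts and versioned identifiers. The calculation was tested on simulated large changes in genes averaging 10 TPM or more, which does not cover low genes or small differences. Python 3.11.15, numpy 2.4.6, pandas 2.3.3 and matplotlib 3.10.9 were used.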

Additional observations from a re-analysis of the deposited data

How the results depend on the processing

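None of the 10 members passed 2-fold under any alternative: pseudocounts of 0.1 or 0.01 TPM or none, a minimum mean of 1 TPM, median-ratio scaling, curated transcripts or versioned identifiers. With 1 library per condition there is no spread between replicates. A value was therefore taken as moved when it shifted by more than 0.196, the SD of the differences over protein-coding genes averaging 10 TPM or more, and a share when it shifted by more than 5 percentage points. No member difference moved by that much, and CDK6 alone took the other sign, 0.11 with curated transcripts only. Under the minimum of 1 TPM, CCND2, CDKN2A and CDKN2B give no value. Smaller pseudocounts count low features, so with 0.1 TPM 1713 genes were higher and 1278 lower past 2-fold, 7 transcripts of members passed and 27730 of all transcripts did. With 0.01 TPM, 3870 genes were higher and 2958 lower. With a minimum mean of 1 TPM, 1 transcript of members and 2429 of all transcripts passed. Over curated transcripts only, the leading transcript held 67.0% of CDK6 in DMSO and 80.1% in CCA-1.1, and 83.0% of CCND3 in CCA-1.1, since predicted transcripts leave the sum. E2F1 was at -0.99 with 0.1 TPM and -1.001 with 0.01 TPM, which is past the threshold, and RRM2 was at -1.37 and -1.41. No paired analysis was possible because each condition has a single library, and for the same reason none could be left out. The absence of read counts limits values near 0, among them those of CDKN2A, CDKN2B and CCND2.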
